A study of Mus musculus with 16 samples.

Results

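De novo lipogenesis, the making of fatty acids from carbohydrate carbon, was followed through 10 genes in mouse liver: Acly, Me1, Acaca, Acacb, Fasn, Elovl6, Scd1, Srebf1, Mlxipl and Thrsp. They were chosen by name, as the enzymes of the route and the regulators of their genes, and all 10 were found by symbol among the 78317 genes listed in the count and TPM tables. Scd1 was placed in the set with its unequal levels among the males on the high fat diet already known, so every contrast that rests on those libraries is given for Scd1 as a description with no test. Bulk RNA was sequenced from whole liver of wild-type (wt) C57BL/6J mice, as 16 libraries in 4 groups of 4: females on a normal diet, females on a high fat diet, males on a normal diet and males on a high fat diet. The mice arrived at 6 weeks of age and ate their diet for 10 weeks. The normal chow (LabDiet 5053) drew 4.5% of its calories from fat and the high fat diet (Research Diets D12492) 60%, so the diets came from different makers and can differ in more than fat. The question the series states is what the high fat diet does to liver RNA in each sex. The labels give no hour of collection and do not say whether the mice were fasted, and they do not say outright that each library is a separate animal, so a p-value measures only the spread between these samples.

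In liver, citrate leaves the mitochondrion and ATP citrate lyase (Acly) splits it into acetyl-CoA, acetyl-CoA carboxylases (Acaca, Acacb) turn that into malonyl-CoA, and fatty acid synthase (Fasn) builds palmitate with NADPH that malic enzyme (Me1) helps to supply. Elovl6 then lengthens palmitate to stearate, and stearoyl-CoA desaturase (Scd1) makes oleate from it. The genes respond to insulin through SREBP-1c, a product of Srebf1, and to glucose through ChREBP, the product of Mlxipl, and they are known to be low in the fasted liver and high after a carbohydrate meal.

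Library totals ran from 22228115 to 41420589 expected counts, which RSEM (a read-sharing quantifier) estimates per gene. Levels are given as CPM, counts scaled to a common TMM-adjusted library size, in the order of replicates 1 to 4, or as TPM, which also divides by transcript length, where genes are compared with each other. A change is a log2 fold change with its standard error (SE), high fat against normal diet or female against male, and its adjusted p comes from the quasi-likelihood test of edgeR with Benjamini-Hochberg adjustment over all 14781 genes that passed the filter on low counts. A gene was called where that p was under 0.05. The 7 hepatocyte markers were present in every library, with summed levels of 104600 to 117300 CPM in normal diet females, 79810 to 95960 in high fat females, 84550 to 95060 in normal diet males and 53480 to 76460 in high fat males. The 4 libraries of males on the high fat diet fell into pairs. Replicates 2 and 3 differed by a chi-square statistic of 4.00 per gene, above the value of 1 that sampling noise gives but far under the 20.7 to 306 of every other pair of libraries within a group. They were kept as separate samples, and calls of members or named genes that change when they are averaged or left out are given beside the result.

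The promoter sequences of the 3 members that fell in females, and of Fasn as the central enzyme that was not called there, are shown so that the letters known to bind lipogenic factors can be read beside the values. Each is the stretch from 250 to 41 bases before an annotated start of the gene, from RefSeq on build GRCm38.p6 (the deposited values were made on GRCm39, per the submitters' processing notes), 5′ to 3′ on the strand of the gene, in lower case with motif matches in capitals. Acly lies at chr11:100528041-100528250 on the minus strand, Acacb at chr5:114165268-114165477 on the plus strand, Me1 at chr9:86695955-86696164 on the minus strand and Fasn at chr11:120824588-120824797 on the minus strand.
Acly: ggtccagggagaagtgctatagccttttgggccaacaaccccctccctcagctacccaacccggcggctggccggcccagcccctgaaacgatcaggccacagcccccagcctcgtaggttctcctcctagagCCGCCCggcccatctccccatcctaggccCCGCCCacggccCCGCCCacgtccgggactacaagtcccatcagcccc
Acacb: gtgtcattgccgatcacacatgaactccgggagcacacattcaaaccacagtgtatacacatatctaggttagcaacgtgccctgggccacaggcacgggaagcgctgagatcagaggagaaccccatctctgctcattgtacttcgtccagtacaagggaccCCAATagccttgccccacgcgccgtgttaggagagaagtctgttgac
Me1: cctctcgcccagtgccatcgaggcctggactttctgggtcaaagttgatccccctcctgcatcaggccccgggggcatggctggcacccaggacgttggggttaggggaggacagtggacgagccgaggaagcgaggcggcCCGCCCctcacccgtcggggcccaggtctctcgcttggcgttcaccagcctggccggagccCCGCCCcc
Fasn: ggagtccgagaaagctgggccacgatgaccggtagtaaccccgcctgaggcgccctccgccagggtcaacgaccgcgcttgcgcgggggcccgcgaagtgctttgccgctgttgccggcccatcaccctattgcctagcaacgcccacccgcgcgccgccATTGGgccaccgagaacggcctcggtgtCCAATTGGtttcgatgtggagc

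A set of 4 motifs was searched on both strands: the sterol regulatory element TCACNCCAC, the E-box CACGTG, the NF-Y box CCAAT and the Sp1 box GGGCGG. A window was at hand for 9 of the 10 members, Scd1 being the exception. The Acly window held 3 Sp1 boxes and that of Me1 held 2, all of them read as CCGCCC on the printed strand. The Acacb window held 1 NF-Y box and that of Fasn 3, a pair of which overlap in the run CCAATTGG. Over the members, counting every annotated start, NF-Y boxes stood in 6 of 9 and Sp1 boxes in 4 of 9, whereas 29.9% and 26.7% of 32851 promoter windows of that length held them. The sterol regulatory element (0.855% of windows) and the E-box (4.65%) were found in 1 member, Mlxipl, in the windows of different annotated starts. Only these letters were searched, so sites that differ from them were not counted. Members with several annotated starts had more windows to match, so the shares are not like for like, and a match is a description of letters and no measurement of binding.

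By group mean, Scd1 was the most abundant of the 10 transcripts per length in all 4 groups and Thrsp came next. This order did not hold in every library. Thrsp was above Scd1 in female normal diet replicates 1 and 2 and in male high fat diet replicates 1 and 4. Me1 was above Thrsp in male normal diet replicate 4. In females on the normal diet Scd1 stood at 824 ± 591 TPM (SD, n = 4), Thrsp at 598 ± 158, Me1 at 126 ± 33.1, Acly at 47.5 ± 15.1 and Elovl6 at 25.3 ± 9.74. Srebf1 (16.3 ± 3.26), Fasn (16.02 ± 7.26), Mlxipl (12.6 ± 1.71), Acaca (11.6 ± 4.92) and Acacb (8.71 ± 2.97) followed, and the last 5 lay within about 1 SD of their neighbours in that order, as did Scd1 and Thrsp. Scd1 made up 32.4% to 66.0% of the summed TPM of the 10 genes in that group, 57.2% to 78.7% in high fat females and 48.0% to 85.4% in normal diet males. In high fat males its share ran from 7.54% to 49.0%. The sum of the other 9 genes was 709 to 989 TPM in females on the normal diet and 350 to 407 in females on the high fat diet, with no overlap. That gap was largely Thrsp, with 783, 664, 522 and 422 TPM on the normal diet and 153, 173, 167 and 198 on the high fat diet. It does not describe the 9 genes evenly. The male range was 265 to 556 TPM under normal chow and widened to 147 to 635 under the high fat diet.

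**Figure D1:**
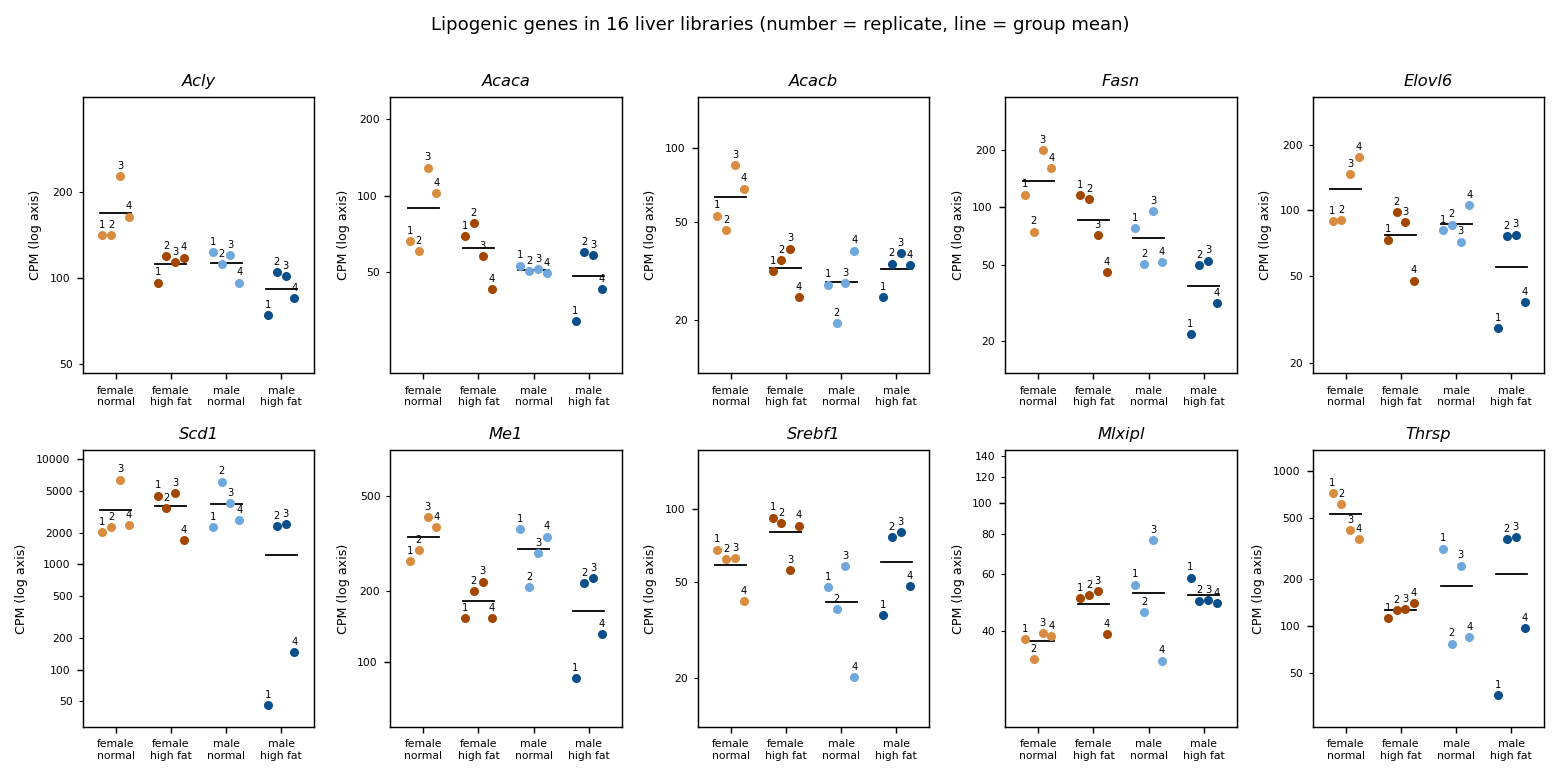
Level of each of the 10 genes in each of the 16 libraries, in CPM on a log axis, by group, with the replicate number beside each point and a line at the group mean. Scd1 in males on the high fat diet spans 46.2 to 2403 CPM, and Thrsp lies between 363 and 715 CPM in females on the normal diet and between 113 and 140 in females on the high fat diet.

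On the high fat diet, female livers carried less RNA of 3 of the 10 genes: Acly and Acacb, which make acetyl-CoA and malonyl-CoA, and Me1, a source of NADPH. No member was called higher by edgeR. On log2(TPM + 1), with limma, Mlxipl was called higher in females and Acly and Me1 were not called. Over all genes tested 11.5% were called in females, 5.76% as lower and 5.74% as higher, and the median change of the 10 members was -0.64 where that of all genes was 0.0. In males Me1 was lower and the other 8 tested members were not called, against 11.4% of all genes called, 5.36% as lower and 6.03% as higher. The male median was -0.08 over the 9 tested members and -0.19 with Scd1, where all genes had 0.01. At an unadjusted p under 0.05 stood 6 of the 10 in females (27.2% of all genes) and 2 of the 9 in males (27.5%). The split of all calls moved with the scaling: 848 rose and 852 fell in females, but 1336 and 567 under upper quartile scaling and 2644 and 282 on log2(TPM + 1), where the median gene shifted by 0.15. In males 891 rose and 793 fell, against 1151 and 581 under upper quartile scaling and 899 and 443 on log2(TPM + 1).

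**Figure D2:**
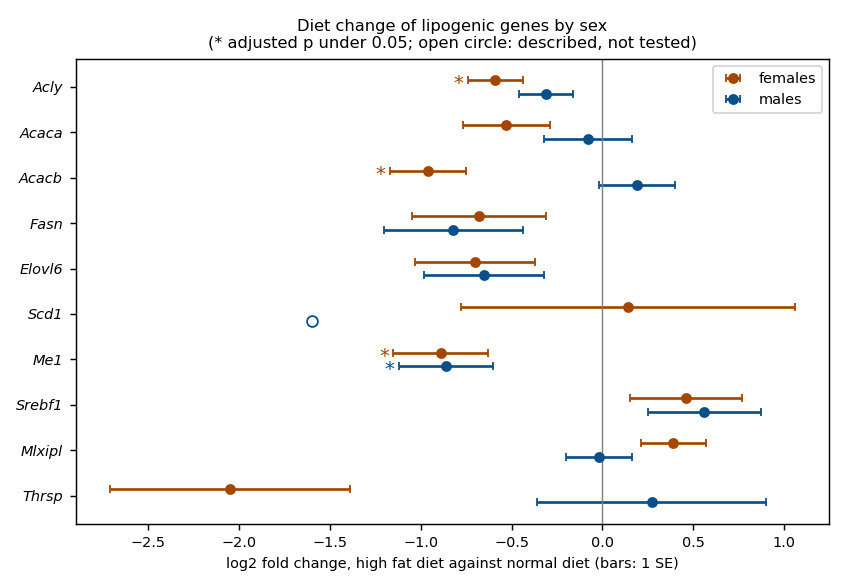
Change with the high fat diet in log2 CPM (x axis) for each of the 10 genes (y axis), females and males in separate colours, with bars of 1 SE and a star where the adjusted p was under 0.05. Acly, Acacb and Me1 carry a star in females and Me1 in males; the open circle is Scd1 in males, at -1.6, described with no test.

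Acly (ENSMUSG00000020917.18), which feeds the route with acetyl-CoA, had 141, 142, 228 and 164 CPM in females on the normal diet and 96.3, 119, 113 and 118 on the high fat diet. All 4 libraries of the high fat diet lay below all 4 of the normal diet, and the change was -0.59 ± 0.15 (adjusted p = 0.0165). Female normal diet replicate 3 was the highest by far, and without it the change was -0.41 and not called (adjusted p = 0.0593), nor was it called on log2(TPM + 1), at -0.32 (adjusted p = 0.187). In males the values were 123, 112, 120.1 and 96.2 CPM on the normal diet and 74.2, 105, 101 and 84.8 on the high fat diet, which overlap, with a change of -0.31 ± 0.15 (adjusted p = 0.197).

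Me1 (ENSMUSG00000032418.16), the cytosolic malic enzyme, had 265, 296, 408 and 369 CPM in females on the normal diet and 153, 199, 218 and 153 on the high fat diet. Again the groups did not overlap, and the change was -0.89 ± 0.26 (adjusted p = 0.0377). In males Me1 had 361, 207, 287 and 337 CPM on the normal diet and 86.1, 215, 226 and 132 on the high fat diet. The male change was of like size, -0.86 ± 0.26 (adjusted p = 0.0440), but the groups overlapped at normal diet replicate 2. Me1 was the 1 member called in both sexes, and each call held in 10 of the 19 fits tried. Neither held on log2(TPM + 1), at -0.63 in females (limma adjusted p = 0.0994) and -0.84 in males (limma adjusted p = 0.0581). The female call was lost without any 1 of normal diet replicates 2, 3 and 4 or high fat diet replicates 1, 2 and 4 (adjusted p of 0.0538 to 0.109). The male call was lost without any 1 of high fat diet replicates 1 and 4 or normal diet replicates 1, 3 and 4 (adjusted p of 0.0650 to 0.119). Me1 lies across from A330041J22Rik on the other strand in the annotation, as Elovl6 does from Gm35986 and Mlxipl from Gm43500. Whether counting used the strand is not given in the sources used here.

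Acaca (ENSMUSG00000020532.19) encodes the cytosolic acetyl-CoA carboxylase that supplies malonyl-CoA for synthesis. Its levels were 66.1, 60.3, 129 and 103 CPM in females on the normal diet and 69.2, 77.8, 57.9 and 42.8 on the high fat diet. These overlap, since normal diet replicates 1 and 2 sat among the high fat libraries, and the change was -0.53 ± 0.24 (adjusted p = 0.168). In males Acaca stood at 53.0, 50.5, 51.2 and 49.5 CPM on the normal diet, the narrowest group of any member, and at 32.1, 59.7, 58.5 and 42.7 on the high fat diet. The male change was -0.08 ± 0.24 (adjusted p = 0.871), with 2 high fat libraries below and 2 above the whole normal diet group.

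Acacb (ENSMUSG00000042010.17) encodes the carboxylase at the mitochondrial surface, whose malonyl-CoA holds back the entry of fatty acids for oxidation. Females had 53.2, 46.5, 85.5 and 68.4 CPM on the normal diet and 31.5, 35.0, 39.0 and 24.7 on the high fat diet. The groups were apart and the change was -0.96 ± 0.21 (adjusted p = 0.00867), the female call that held in all 19 fits tried. Males had 27.8, 19.4, 28.1 and 38.2 CPM on the normal diet and 24.7, 33.8, 37.3 and 33.5 on the high fat diet. The male groups overlapped throughout, with a change of 0.19 ± 0.21 (adjusted p = 0.611).

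Fasn (ENSMUSG00000025153.10), the enzyme that assembles the fatty acid chain, spread widely in every group. Females had 116, 74.6, 199 and 160.0 CPM on the normal diet and 116, 109.9, 71.5 and 46.0 on the high fat diet. The groups overlapped and the change was -0.68 ± 0.37 (adjusted p = 0.261). Males had 77.9, 50.3, 95.5 and 51.9 CPM on the normal diet and 21.8, 49.8, 52.6 and 31.7 on the high fat diet. The male groups met only around 50.3 to 52.6 CPM, and the change was -0.82 ± 0.38 (adjusted p = 0.177).

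Elovl6 (ENSMUSG00000041220.11), the elongase, had 89.1, 89.9, 146 and 175 CPM in females on the normal diet and 73.4, 98.2, 88.7 and 47.6 on the high fat diet, a change of -0.70 ± 0.33 (adjusted p = 0.184). In males it had 81.2, 86.1, 71.9 and 106 CPM on the normal diet and 28.7, 76.2, 77.4 and 37.8 on the high fat diet, a change of -0.65 ± 0.33 (adjusted p = 0.219). Both pairs of groups overlapped. In males the overlap came from high fat diet replicates 2 and 3, and with both left out the change was -1.38 and called (adjusted p = 0.0205).

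Scd1 (ENSMUSG00000037071.4), the desaturase, had 2026, 2266, 6357 and 2338 CPM in females on the normal diet and 4473, 3430, 4734 and 1683 on the high fat diet. Female normal diet replicate 3 stood above all other libraries of the series for this gene, and the groups overlapped over most of their range. The female change was 0.14 ± 0.92 (adjusted p = 0.944), with an SE that draws on the spread of all 16 libraries, the uneven males on the high fat diet included. Fitted on the 8 female libraries alone it was 0.15 ± 0.48 (adjusted p = 0.875), and with 1 library left out of the 16 it ran from -0.02 to 0.70. Males on the normal diet had 2240, 6089, 3834 and 2617 CPM, a range close to that of both female groups. Males on the high fat diet had 46.2, 2294, 2403 and 148 CPM. There replicates 2 and 3 sat inside the range of the other groups, while replicates 1 and 4 lay under every other library of the series. The highest of the 4 was 52.0 times the lowest, a log2 range of 5.70 that 17 of the 14781 tested genes exceeded in that group, where the median gene had 0.51. That spread was known when the set was chosen, so its rank is a description and tests nothing. Rounded from the deposited estimates, these 4 values rest on 1243, 67580, 69940 and 3342 expected counts, so the low values are not at the limit of detection. The fitted change in males was -1.60 as a description, and -5.25 with replicates 2 and 3 left out, so the mean of the 4 libraries describes none of them.

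Of the regulators, Srebf1 (ENSMUSG00000020538.16), which encodes SREBP-1, had positive estimates in both sexes and was called in neither. Females had 67.9, 62.1, 62.8 and 41.5 CPM on the normal diet and 92.2, 87.5, 55.8 and 85.5 on the high fat diet, a change of 0.46 ± 0.31 (adjusted p = 0.361). Males had 47.7, 38.6, 57.9 and 20.1 CPM on the normal diet and 36.3, 76.4, 80.3 and 47.9 on the high fat diet, a change of 0.56 ± 0.31 (adjusted p = 0.260). The groups overlapped in both sexes. In the annotation, exons of Srebf1 overlap Rai1 on the other strand and Mir6922 on the same strand. The gene's 2 SREBP-1 forms, which start at different exons, are summed in a gene count.

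Mlxipl (ENSMUSG00000005373.14), the gene of the glucose-responsive factor ChREBP, had 37.9, 32.8, 39.5 and 38.8 CPM in females on the normal diet and 50.7, 51.7, 53.2 and 39.3 on the high fat diet. Only high fat diet replicate 4 reached into the normal diet range, and the change was 0.39 ± 0.18 (adjusted p = 0.177). On log2(TPM + 1) it was 0.59 and called (adjusted p = 0.0347), against a shift of the median gene of 0.15. Males had 55.8, 46.0, 76.6 and 32.5 CPM on the normal diet and 58.6, 49.8, 49.9 and 48.8 on the high fat diet, a change of -0.02 ± 0.18 (adjusted p = 0.953) whose sign turned under upper quartile scaling (0.03) and on log2(TPM + 1) (0.11).

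Thrsp (ENSMUSG00000035686.9, Spot 14), a nuclear and cytosolic protein of lipogenic tissues that follows thyroid hormone and carbohydrate, had the largest female change of the members. Females had 715, 609, 415 and 363 CPM on the normal diet and 113, 126, 129 and 140.3 on the high fat diet. Every high fat library lay well below every normal diet library, with means 4.13 times apart, yet the change of -2.05 ± 0.66 missed the threshold (adjusted p = 0.0614). The test takes its spread from all 16 libraries, and in males Thrsp was uneven: 316, 76.8, 245 and 84.6 CPM on the normal diet and 35.9, 365, 373 and 96.7 on the high fat diet. Fitted on the 8 female libraries alone, the female change of -2.04 was called (adjusted p = 0.000152), as it was by DESeq2 (-2.05, adjusted p = 0.0128) and with male high fat diet replicates 2 and 3 left out (-2.05, adjusted p = 0.0201), 3 of the 19 fits in all. The male change was 0.27 ± 0.63 (adjusted p = 0.830), and -0.12 when replicates 2 and 3 were averaged into 1 sample. With Thrsp, 4 of the 10 members had all female high fat libraries below all female normal diet libraries (9.55% of all genes did). In males no member had groups that did not overlap in either direction, where 18.5% of all genes did. For Scd1 that overlap rests on levels already known when the set was chosen.

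The male high fat libraries differed for most of the set and not for Scd1 alone. In 9 of the 10 members replicates 1 and 4 were both below replicates 2 and 3, a pattern seen in 27.2% of the tested genes, and no member had the opposite pattern, seen in 28.7%. For Acacb the margin was slight, with 33.51 CPM in replicate 4 against 33.85 in replicate 2. Mlxipl was the exception, with 58.6 CPM in replicate 1 against 48.8 to 49.9 in the others. Replicate 1 was the lowest of the 4 for those 9 members, and the ratio of highest to lowest grew from 1.41 for Acly to 10.4 for Thrsp and 52.0 for Scd1. Since Scd1's unequal levels led to this set, the count describes these libraries and tests nothing. In the females, replicate 3 of the normal diet was the highest of its group for 7 members and replicate 4 of the high fat diet the lowest for 6. In males on the normal diet no library was highest or lowest for more than 4 members.

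**Figure D3:**
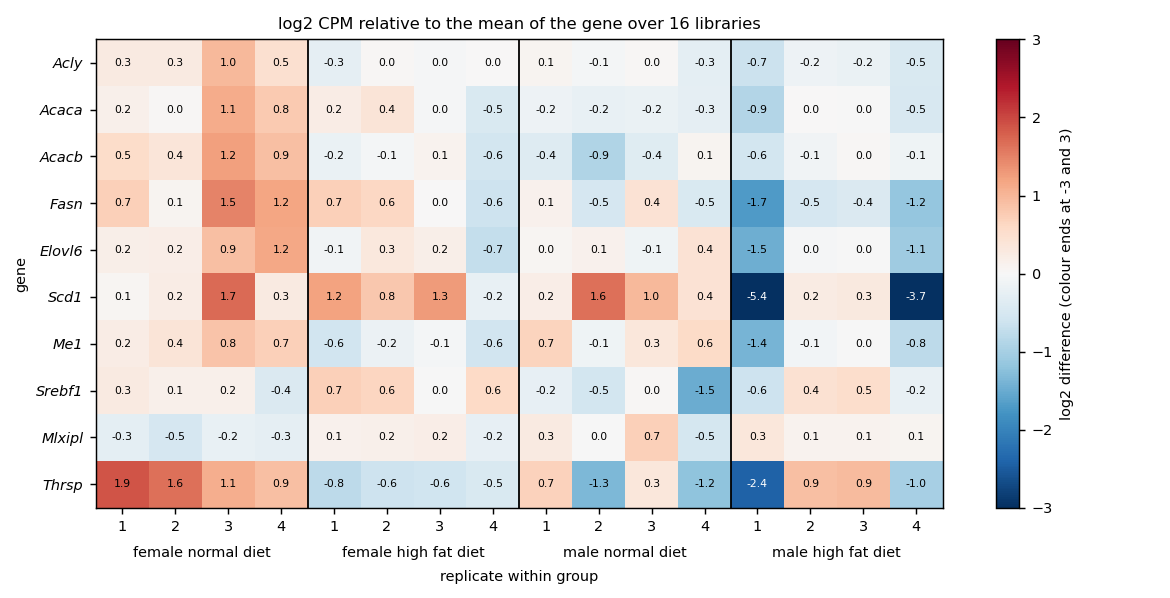
Each cell is the log2 CPM of a gene (rows) in a library (columns, replicates 1 to 4 within the 4 groups) minus the mean of that gene over the 16 libraries, with colour ending at -3 and 3. In males on the high fat diet, replicates 1 and 4 are below replicates 2 and 3 for 9 genes, by a slight margin for Acacb, and not for Mlxipl. Female normal diet replicate 3 is the highest of its group in 7.

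Other measures moved with these libraries, and their part in the pattern was not tested. Albumin (Alb), the main secreted protein of hepatocytes, had 37640, 58220, 58560 and 39440 CPM in males on the high fat diet, where no library of another group was under 65360. Alb makes up most of the hepatocyte marker sum. Of the other hepatocyte markers, Ttr, Tat and Cps1 were also lower in replicates 1 and 4 than in replicates 2 and 3. Hnf4a was higher there, with 528.5, 495.8, 488.5 and 518.6 CPM. Apoa1 (5505, 4500, 4873 and 4577) and Apob (4298, 4677, 4999 and 5317) had neither pattern. The macrophage marker sum ran opposite to Alb, at 247, 150.1, 129 and 202 CPM, inside or near the range of males on the normal diet (145 to 219). The adipocyte marker sum was 0.966, 10.63, 10.93 and 5.80 CPM, at most 2.97 elsewhere. Nearly all of that excess was Cfd, with 0.372, 9.64, 10.2 and 3.76 CPM, while Adipoq stayed between 0.366 and 1.46 in all libraries and Lep, Plin1 and Retn did not pass the filter. Pancreatic acinar markers summed to 0.743, 19.5, 8.01 and 0.399 CPM, with Cpa1, Ctrb1 and Pnlip at 0 in replicates 1 and 4, and elsewhere to at most 0.343 except 3.93 in female normal diet replicate 4. Over all 16 libraries endothelial markers summed to 78.5 to 122 CPM, stellate cell markers to 191 to 314 and cholangiocyte markers to 4.62 to 8.56. In females, the macrophage sum was 160.0 to 217 CPM on the normal diet and 253 to 355 on the high fat diet. Beside the fall of Acly, Acacb and Me1, 3 of the 7 hepatocyte markers, Hnf4a, Tat and Cps1, were called lower in females. None was called higher, 2 of the 7 had positive estimates, and 5.76% of all genes were called lower. In males 3 of the 7, Alb, Hnf4a and Tat, were called lower beside the fall of Me1, where 5.36% of all genes were. In bulk liver, fewer cells of a type and less RNA per cell cannot be told apart.

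The difference between the sexes in their response to diet was tested as an interaction, females minus males. None of the 9 members tested was called, where 0.677% of all genes were. Acacb came nearest, with -1.15 ± 0.30 (adjusted p = 0.0943), its female diet groups lying apart and its male ones overlapping. DESeq2 called it (adjusted p = 0.0160), as did the edgeR fit without male normal diet replicate 4 (-1.32, adjusted p = 0.0483). Thrsp had -2.32 ± 0.90 (adjusted p = 0.300). These were the 2 members with an unadjusted p under 0.05, as 13.0% of all genes had. For Scd1 the fitted difference was 1.74, or 5.39 with male high fat diet replicates 2 and 3 left out, as a description. A female fall in Acly that passed the threshold and a male one that did not are therefore not shown to differ.

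On the normal diet, female livers carried more RNA of 3 members than male livers: Acly, Acaca and Acacb. The differences, female minus male, were 0.58 ± 0.15 for Acly (adjusted p = 0.0147), 0.81 ± 0.24 for Acaca (adjusted p = 0.0337) and 1.16 ± 0.21 for Acacb (adjusted p = 0.00187). In each, all 4 female libraries were above all 4 male libraries, as they were for Thrsp, whose 1.54 ± 0.65 was not called (adjusted p = 0.124) unless male high fat diet replicates 2 and 3 were left out of the fit (1.54, adjusted p = 0.0468). Of all genes 15.7% were called in this contrast, 7.03% as higher in females, and 9.86% had all female libraries above all male libraries. Calls for all genes split into 1039 higher and 1283 lower, and 1269 and 1020 under upper quartile scaling. Fasn, at 1.00 ± 0.38, was not called (adjusted p = 0.0875), and DESeq2 called it (adjusted p = 0.0413). Scd1 levels overlapped between the sexes, at -0.19 ± 0.92 (adjusted p = 0.917), and at -0.18 ± 0.49 (adjusted p = 0.836) fitted on these 8 libraries alone. The Acaca call was lost without female normal diet replicate 3 or 4 or any 1 of the 4 male libraries (adjusted p of 0.0549 to 0.0962), while those of Acly and Acacb held in all 19 fits. Females on the normal diet are the shared control of this contrast and of the female diet contrast, so both draw on the same high female values.

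On the high fat diet Fasn alone of the 9 members tested was called higher in females, at 1.14 ± 0.38 (adjusted p = 0.0482), where 20.4% of all genes were called and 8.82% as higher. The groups overlapped, since 46.0 CPM in female replicate 4 lay below 52.6 in male replicate 3. The call was lost without any 1 of female replicates 1, 2 and 3 or male replicates 1, 2 and 4 (adjusted p of 0.0558 to 0.137). With male replicates 2 and 3 both left out, Elovl6 was called as well as Fasn. Over all genes the split was 1304 higher and 1715 lower, and 2957 and 753 on log2(TPM + 1). The Scd1 difference of 1.55, and 5.20 without male replicates 2 and 3, is a description.

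Around the route, Insig1 fell with the high fat diet in both sexes and Insig2 rose in males. Insig1 and Insig2 encode anchors that hold Scap, the escort of SREBP, in the endoplasmic reticulum, and Insig1 is itself a target of SREBP. Insig1 had 359, 301, 325 and 307 CPM in females on the normal diet and 211, 210.4, 225 and 215 on the high fat diet, a change of -0.58 ± 0.10 (adjusted p = 0.00119). In males it had 267, 247, 316 and 265 CPM on the normal diet and 81.0, 93.4, 88.0 and 85.8 on the high fat diet, a change of -1.65 ± 0.10 (adjusted p = 1.71e-08). The male high fat libraries lay within a narrow band for Insig1, replicates 1 and 4 again the lower ones. The male fall was the larger, with an interaction of 1.07 ± 0.14 (adjusted p = 0.00110). Insig2 had 177, 369, 369 and 260 CPM in males on the high fat diet, all above the 82.7, 137, 126 and 116 of the normal diet, a change of 1.35 ± 0.23 (adjusted p = 0.00150). In females it had 119.6, 191, 127 and 149 CPM on the normal diet and 108, 131, 151 and 89.6 on the high fat diet (-0.29 ± 0.23, adjusted p = 0.438). The Insig2 interaction of -1.64 ± 0.33 was called (adjusted p = 0.0251), but not without any 1 of female high fat diet replicate 1, female normal diet replicates 2 and 4, male high fat diet replicates 2 and 3 or male normal diet replicate 4 (adjusted p above 0.05 in each and up to 0.0722). Averaging high fat male replicates 2 and 3 also ended the call (-1.50, adjusted p = 0.0595), as did leaving both out (-1.21, adjusted p = 0.0913), and it held in 15 of 26 fits.

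**Figure D4:**
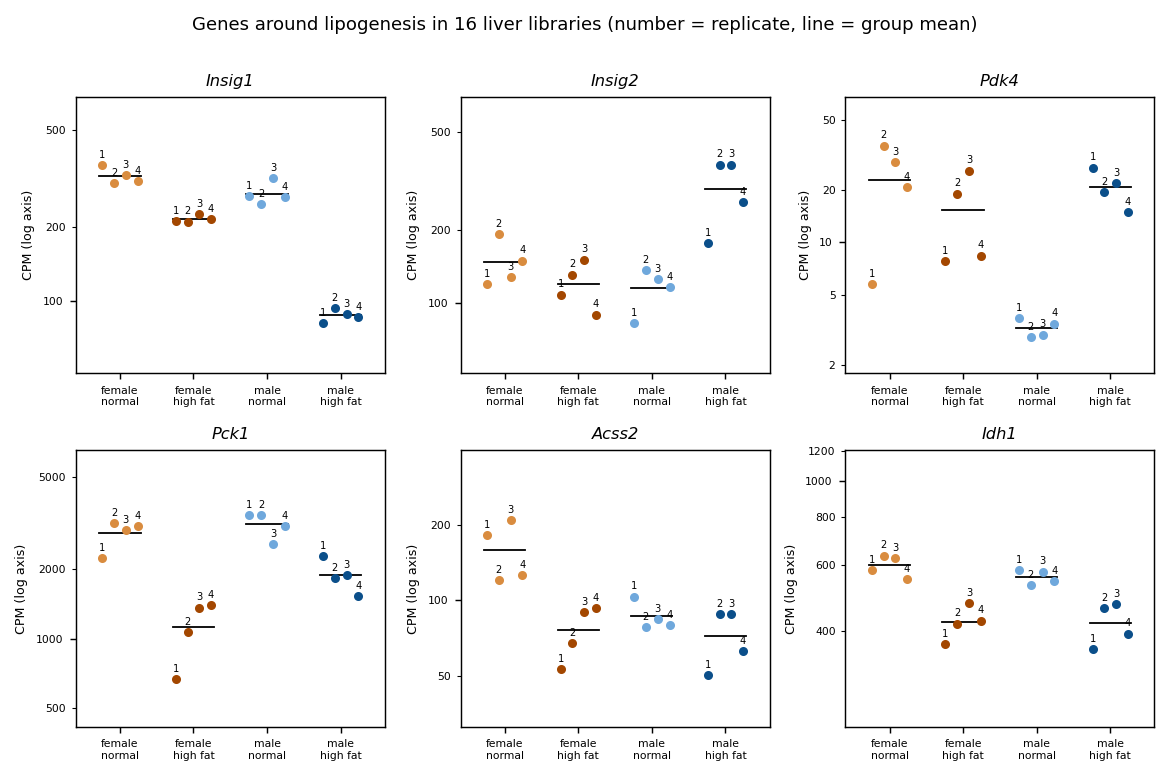
Level of Insig1, Insig2, Pdk4, Pck1, Acss2 and Idh1 in each of the 16 libraries, in CPM on a log axis, by group, with replicate numbers and a line at the group mean. Insig1 lies between 81.0 and 93.4 CPM in all 4 males on the high fat diet and at or above 210.4 CPM in every other library.

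Of the 13 genes listed for SREBP control, none was called higher and 2 lower in females, Insig1 and Srebf2, and in males Insig2 was higher and Insig1 lower. These 2 of 13 in each sex stand beside 11.5% and 11.4% of all genes, so the count is near the background. The list's median change was -0.07 in females and -0.09 in males. Srebf2, the gene of the sterol-responsive SREBP, changed by -0.42 ± 0.13 in females (adjusted p = 0.0448), and the call was lost without high fat diet replicate 1, 2 or 4 or normal diet replicate 3 or 4 (adjusted p of 0.0606 to 0.187). It held in 7 of 19 fits, and not when high fat male replicates 2 and 3 were averaged (0.0508) or left out (0.0515), under upper quartile scaling (0.0811) or on log2(TPM + 1), at -0.14 (adjusted p = 0.493). Among 13 genes that supply carbon or NADPH, Acss2 and Idh1 fell in females and Slc25a1 and Idh1 in males, none rose, and the medians were -0.23 and -0.05. Here too 2 of 13 in each sex is near the share of all genes called. Acss2, which makes acetyl-CoA from acetate, had 182, 120.1, 208 and 126 CPM in females on the normal diet and 53.4, 67.9, 89.8 and 93.0 on the high fat diet, a change of -1.06 ± 0.22 (adjusted p = 0.00553). Idh1, the cytosolic isocitrate dehydrogenase that also yields NADPH, fell by 0.50 ± 0.11 in females (adjusted p = 0.00851) and changed by -0.40 ± 0.11 in males (adjusted p = 0.0257). The female Idh1 call was lost on log2(TPM + 1), at -0.26 (adjusted p = 0.0898). The male Idh1 call was lost without high fat diet replicate 1 or 4 or normal diet replicate 1 or 3 (adjusted p of 0.0529 to 0.0750). Slc25a1, the carrier that brings citrate to Acly, fell by 0.58 ± 0.13 in males (adjusted p = 0.00971), and in females it had -0.32 ± 0.13 (adjusted p = 0.126).

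Of 7 genes that set malonyl-CoA by other means, 2 were called in females and 1 in males, where 11.5% and 11.4% of all genes were. Counts this small are no result about the list. The called genes were subunits of AMP-activated protein kinase, as most of the 7 are. In females Prkab1 rose by 0.47 ± 0.12 (adjusted p = 0.0179) and Prkaa1 fell by 0.47 ± 0.12 (adjusted p = 0.0165), and in males Prkag1 fell by 0.30 ± 0.08 (adjusted p = 0.0218). Single libraries decided each call, which was lost for Prkab1 without female high fat or normal diet replicate 4 (adjusted p of 0.0689 and 0.0544), for Prkaa1 without female normal diet replicate 1 or 2 (0.0561 and 0.0564) and for Prkag1 without male high fat diet replicate 4 or normal diet replicate 1 (0.0586 and 0.0553). Prkag1 also missed the threshold when high fat male replicates 2 and 3 were left out (-0.35, adjusted p = 0.0540), under upper quartile scaling (0.0619), with no filter (0.149) or on log2(TPM + 1) (0.0649), and Prkaa1 missed it on log2(TPM + 1), at -0.20 (adjusted p = 0.206). Of 10 other liver targets of SREBP-1c, its activator LXR or ChREBP, 9 passed the filter. Arrdc4, an arrestin known as a glucose-responsive target, rose in females, from 14.1 to 29.0 CPM on average (1.04 ± 0.23, adjusted p = 0.00818), and none fell. This 1 call of 9 is near the 11.5% of all genes called in females. None was called in males, where 2 had an unadjusted p under 0.05 (27.5% of all genes).

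Genes known to rise on fasting were listed because they usually oppose the lipogenic genes. In females 2 of 9 fell and none rose: Pck1, the gluconeogenic carboxykinase, with a change of -1.34 ± 0.20 (adjusted p = 0.000384) and Angptl4, a lipoprotein lipase inhibitor, with -1.37 ± 0.28 (adjusted p = 0.00578). In males Pdk4, which shuts pyruvate out of oxidation, rose from 3.71, 2.88, 2.98 and 3.44 CPM to 26.6, 19.4, 21.8 and 14.8, a change of 2.67 ± 0.52 (adjusted p = 0.00548). The hormone gene Fgf21 rose too, by 2.43 ± 0.70 from a mean of 0.793 CPM to 4.36 (adjusted p = 0.0377), and Pck1 fell by 0.73 ± 0.20 (adjusted p = 0.0219). The Fgf21 call was lost in 7 of the 8 fits without 1 male library, all but that without high fat diet replicate 2 (adjusted p of 0.0516 to 0.0983), and the male Pck1 call without high fat diet replicate 2 or 4 or normal diet replicate 1 or 2 (adjusted p of 0.0538 to 0.0718) or with high fat diet replicates 2 and 3 both left out (0.105). The 2 of 9 called in females and 3 of 9 in males stand beside 11.5% and 11.4% of all genes. None of the 9 had a called interaction (0.677% of all genes), and 5 had an unadjusted p under 0.05 (13.0% of all genes). All 9 interaction estimates were negative, with a median of -1.24 where all genes had -0.01.

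Of 8 listed relatives of the members, 5 passed the filter, and none of these was called for diet in females or in males. With so few genes, and 11.5% and 11.4% of all genes called, this is no result about the list. At an unadjusted p under 0.05 stood 1 in each sex (27.2% and 27.5% of all genes). Scd2, the desaturase that prevails in brain, stood at 5.09 to 10.3 CPM in all 16 libraries, with 5.09, 6.82, 7.32 and 8.01 in the males on the high fat diet whose Scd1 differed 52.0 times. Scd3 and Scd4 had at most 0.0885 CPM in any library. Of the mitochondrial malic enzymes, Me3 had at most 0.354 CPM and Me2 had 2.43 to 5.06. Mid1ip1, the gene of a partner and relative of the Thrsp protein, was higher in females than in males on the high fat diet, by 1.23 ± 0.39 (adjusted p = 0.0384). That call was lost without female replicate 1, 2 or 4 or male replicate 1 or 4 (adjusted p of 0.0514 to 0.106). Of all genes 20.4% were called in that contrast, 8.82% as higher in females. The desaturase genes are near copies of each other, and how reads common to them were shared is set by the RSEM estimates.

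Within the set, likeness was measured as the root mean square difference of centred log2 CPM profiles over the 16 libraries. Acly and Acaca were the closest pair, at 0.26, and Acacb with Acaca and Elovl6 with Me1 followed, both at 0.31. Scd1 had no close partner: its nearest member was Fasn, at 1.38, where the root mean square of its own profile was 1.83. Outside the set the genes closest to Scd1 were Cyp2c29 (1.17), Etnppl (1.22), Cyp3a59 (1.24), Cyp3a11 (1.24) and Ugt1a5 (1.25). All of them were low in male high fat diet replicates 1 and 4. Scd1 departs most from its own mean in those libraries, so the ranking favours such genes and their low values are no separate result. The likeness did not hold everywhere. Cyp3a11 had 7212 to 7604 CPM in females on the normal diet and 1932 to 2341 on the high fat diet, where the Scd1 groups overlapped. Cyp2c29, a cytochrome of drug and fatty acid oxidation, had 182, 668, 688 and 246 CPM in males on the high fat diet. The cytochrome and glucuronosyltransferase genes have near copies, so their counts are uncertain to that extent. Fasn, whose own profile had 0.82, was closest to Gstm2 (0.39), Fdft1 (0.48), Rnd2 (0.49), Tm7sf2 (0.49) and Rab40b (0.50). Fdft1 and Tm7sf2 encode enzymes of cholesterol synthesis. The measure describes these 16 libraries and carries no test.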

How the data were processed

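Mouse liver RNA was measured by poly(A) sequencing in 16 libraries. The authors deposited expected counts per gene, estimated with RSEM, and TPM, with STAR, RSEM and GRCm39 named per the submitters' processing notes. Their versions and the strand setting are not given in the sources used here. Of the deposited expected counts, 4.89% were not whole, and they were rounded. Symbols were matched by Ensembl identifier for 51487 of 78317 genes.

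Low counts were filtered with filterByExpr, leaving 14781 genes (edgeR 4.0.16 in R 4.3.3). Libraries were scaled by TMM and fitted with 1 mean per group, and the robust quasi-likelihood test was run two-sided for 5 contrasts, with Benjamini-Hochberg adjustment over all tested genes. The SE is the log2 fold change over the square root of F. The fit was tested on simulated counts. Group values are means with SD over 4 libraries. Alternatives used DESeq2 1.42.0, limma 3.58.1 on log2(TPM + 1) and log2(TPM + 0.1), other scalings, no filter, and libraries left out. All libraries carry the same batch label.

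The members and lists were chosen with earlier results of these data known. Genes named are the 10 members, up to 4 called genes of each of 6 pathway lists per contrast of diet in females, diet in males or interaction, Scd2, Scd3, Scd4 and Mid1ip1, and the 5 genes nearest in profile to Scd1 and to Fasn. Promoter windows stop 41 bases before the start because exons of other transcripts reach closer.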

Additional observations from a re-analysis of the deposited data

Results flagged for a closer look

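In 39 groups of 4 libraries (10 genes in 4 groups, without Scd1 in males on the high fat diet, whose values led to the set), the gap of the highest or lowest library to the next was set against the range of the group, with Dixon's critical value for 4 samples, which chance passes in about 1 of 20 groups. Scd1 in female normal diet replicate 3 passed, with 6357 CPM where the other 3 libraries had 2026 to 2338. Mlxipl in male high fat diet replicate 1 passed, with 58.6 CPM where the others had 48.8 to 49.9.

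The change with diet differed between the sexes for Insig1, with an interaction of 1.07 ± 0.14 (edgeR adjusted p = 0.00110), all 4 high fat libraries lying below all 4 normal diet libraries in each sex. It differed for Insig2 too, with -1.64 ± 0.33 (edgeR adjusted p = 0.0251), where all 4 male high fat libraries lay above all 4 male normal diet libraries and the female groups overlapped.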

How the results depend on the processing

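Over the alternatives, 79 recomputed counts of called members stayed within 1.5 times and 23 did not, and of the values of single genes 819 kept direction and call, 110 lost the call, 10 gained it, 16 changed sign and 3 untested values moved. A count of like size can hold other genes. On log2(TPM + 1) and log2(TPM + 0.1) Acly (limma adjusted p = 0.187 and 0.188) and Me1 (0.0994 and 0.104) lost their female calls. There Mlxipl was called higher in females (0.0347 and 0.0352), and Acacb kept its call. Leaving out 1 library at a time, members called numbered 1 to 3 in females (1, Acacb, without normal diet replicate 3), 0 to 1 in males (0 without high fat diet replicate 1 or 4 or normal diet replicate 1, 3 or 4), 0 to 1 in the interaction (1, Acacb, without male normal diet replicate 4), 2 to 3 between the sexes on the normal diet and 0 to 1 on the high fat diet (0 without female replicate 1, 2 or 3 or male replicate 1, 2 or 4). The male count was 0 with no filter, with only the 2 groups compared and on both TPM scales, and 2 (Me1, Elovl6) with male high fat diet replicates 2 and 3 left out, an alternative chosen after seeing the data. The interaction count was 1 by DESeq2. The count between the sexes on the high fat diet was 0 with no filter and with only the 2 groups, and 2 (Fasn, Elovl6) without those 2 libraries. Without them Scd1 moved to -5.25 in males, 5.39 in the interaction and 5.20 between the sexes. Signs changed for values that were not called. Scd1 in females ran from -0.02 to 0.70 with 1 library left out and between the sexes on the normal diet from -0.73 to 0.17, and Acaca in males from -0.20 to 0.07. Mlxipl in males was 0.03 under upper quartile scaling, 0.11 on log2(TPM + 1), 0.12 on log2(TPM + 0.1), 0.03 without male high fat diet replicates 2 and 3, and -0.20 to 0.21 with 1 library left out. Thrsp in males was -0.12 with replicates 2 and 3 averaged, -1.45 without them and -0.13 to 0.68 with 1 library left out. The causes were not tested.

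The replicate numbers did not pair the samples: correlations of same-numbered deviations ran from -0.159 to 0.137. With the replicate block, Mlxipl in males was 0.02 and the count between the sexes on the high fat diet was 0, and the Acaca call between the sexes on the normal diet, the Mid1ip1 call between them on the high fat diet and the male Fgf21 call were lost.

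Over all genes, 1700 were called in females, 2926 on log2(TPM + 1), 2762 on log2(TPM + 0.1) and 947 to 1647 with 1 library left out. In males 1684 were called, and 1113 to 1912 with 1 library left out. In the interaction 100 were called, 337 by DESeq2, 58 with high fat male replicates 2 and 3 averaged and 51 to 176 with 1 library left out. Between the sexes on the normal diet 2322 were called, and 1325 to 2488 with 1 library left out. Between the sexes on the high fat diet 3019 were called, 1958 with only those groups fitted and 1973 to 3019 with 1 library left out. Depth did not limit the members, the lowest of which had at least 587 expected counts in each library.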
